A study of Mus musculus with 2 samples.

Results

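The bCAPs are the cells of cultured brown adipose tissue that the study's cluster table names as brown committed adipocyte progenitors. They were selected by that label, joined by barcode to the deposited brown count matrix. The study labelled 5958 brown precursor cells. Only the first 1999 of them in barcode order were used, and these are called the labelled cells here. The bCAPs number 296 of these 1999, or 14.8% (13.3 to 16.4%), among 12270 barcodes of the series. The stromal vascular fraction was taken from the interscapular brown and the subcutaneous white depot of newborn (P0 by the labels) male and female C57/BL6J pups, for which the labels give no engineered allele and no treatment. The pups were pooled, the cells were plated and grown to confluency, and each depot gave 1 library on the 10x Genomics 3' platform. The other 1703 labelled brown cells fall into 5 clusters of early preadipocytes, bAPC 1 to bAPC 5, with 581, 415, 171, 142 and 115 cells, and into 279 fibroadipogenic progenitor-like cells, the bFAPLs. All of these are dividing or resting precursors in a dish, from pooled animals, and no cell was sampled directly from tissue.

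White and brown adipocytes arise from fibroblast-like precursors marked by Pdgfra, and commitment is the step at which such a precursor is set on the adipocyte path before it stores lipid. Pparg encodes the nuclear receptor that drives adipocyte genes together with the C/EBP factors, and Fabp4 is a fatty acid carrier and one of its best known targets. Ebf2 encodes a transcription factor that marks brown precursors and opens brown fat genes to Pparg, and Prdm16 acts in the same programme. Dlk1, also called Pref-1, is a surface protein of preadipocytes that restrains differentiation and is lost as cells commit.

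The 296 bCAPs held 8203009 unique molecular identifiers (UMIs), with a median of 25900.5 per cell and a range of 12384 to 54571. The other labelled cells had a median of 27168 UMIs. Genes found per cell were 5812 at the median in bCAPs and 5771 in the others, and mitochondrial genes took 3.02% and 2.96% of UMIs, so depth and mitochondrial share were alike. Levels are given as counts per 1e6 UMIs (CPM), after adding up each gene's UMIs across all cells of a cluster. Values in parentheses are exact 95% intervals that cover counting error only, since neither pups nor cultures nor libraries were replicated and cells of 1 library are not replicates. For the same reason no p-value was computed. The clusters were made by the study from these same counts after it regressed out cell cycle scores, so a difference between bCAPs and the rest describes the cluster and is no test of it.

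The 3 genes that mark the bCAPs were each at their highest in the cells that carry the label. Pparg (ENSMUSG00000000440, chromosome 6, 115360951 to 115490399, GRCm38) reached 92.8 CPM (86.3 to 99.6) in bCAPs. Its level was 66.4 CPM in bAPC 1, 47.6 in bAPC 2, 74.9 in bAPC 3, 66.1 in bAPC 4, 12.4 in bAPC 5 and 17.0 in bFAPLs. All 6 lay below the interval of bCAPs, with bAPC 3 (67.0 to 83.4) nearest and bAPC 5 lowest. Against all other labelled cells together, at 51.5 CPM, the log2 ratio of Pparg was 0.85 (0.73 to 0.97). Fabp4 (ENSMUSG00000062515, chromosome 3, 10204088 to 10208576) stood at 302 CPM (290.2 to 314) in bCAPs. Elsewhere it was 83.3 CPM in bAPC 1, 132 in bAPC 2, 92.4 in bAPC 3, 156 in bAPC 4, 24.8 in bAPC 5 and 91.4 in bFAPLs. The nearest cluster was bAPC 4 and the lowest bAPC 5, and the log2 ratio over all other cells was 1.59 (1.52 to 1.66). Ebf2 (ENSMUSG00000022053, chromosome 14, 67233292 to 67430918) reached 321 CPM (309 to 333) in bCAPs and 155 CPM in bAPC 1, 86.2 in bAPC 2, 160.0 in bAPC 3, 107 in bAPC 4, 213 in bAPC 5 and 165 in bFAPLs. For Ebf2 the second place went to bAPC 5, the cluster lowest in Pparg and Fabp4, so the order of the other clusters was not shared by the 3 markers. The log2 ratio of Ebf2 was 1.20 (1.14 to 1.27).

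**Figure D1:**
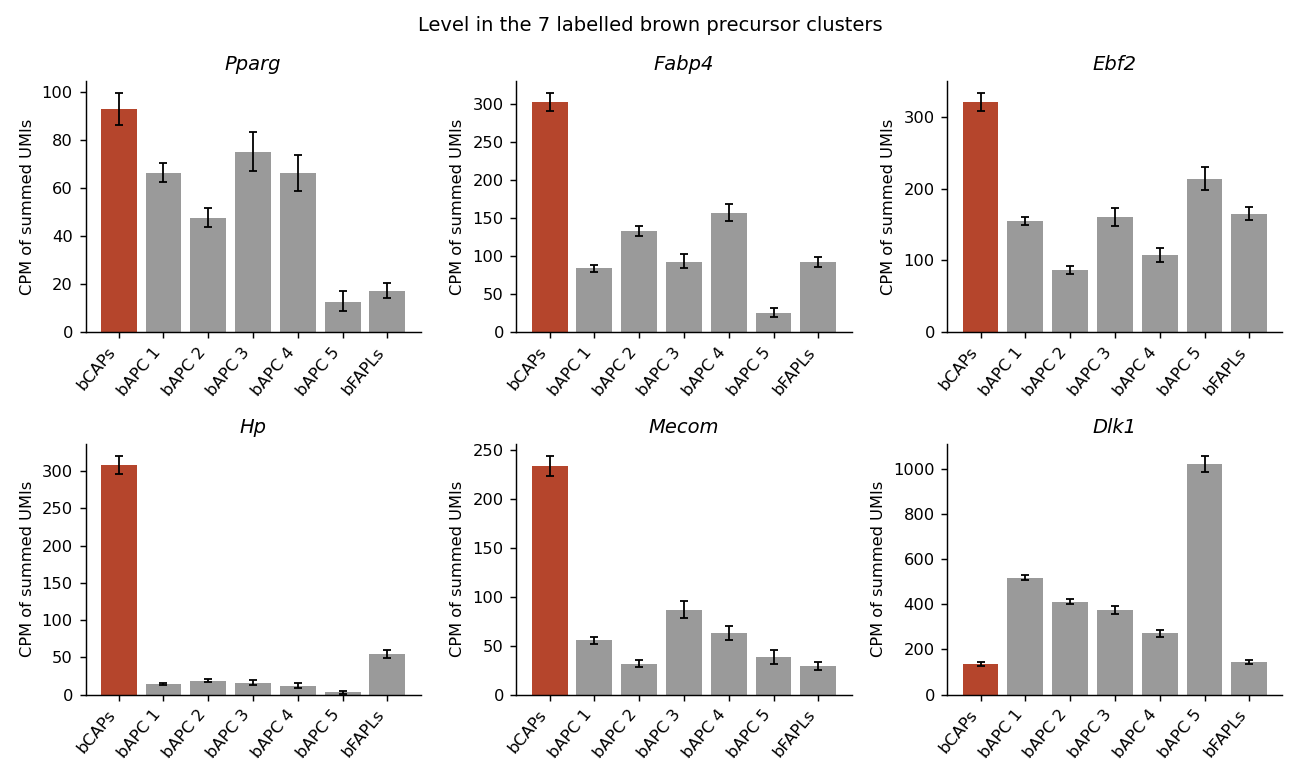
Bars give the level (CPM of summed UMIs) of Pparg, Fabp4, Ebf2, Hp, Mecom and Dlk1 in each of the 7 labelled brown clusters, bCAPs in red, and error bars are exact 95% Poisson intervals. In bCAPs the first 5 genes stand above all 6 other clusters and Dlk1 stands lowest, at 136 CPM.

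Since Pparg is a marker of bCAPs and C/EBP factors act with it, the region before a start site of Pparg is shown, chosen because it holds letters of a C/EBP element. Of the 15 leading and 3 marker genes, 9 have such windows, and 3 of the 9 (Pparg, Cp and Sorbs2) hold the letters. The annotation gives Pparg 3 start sites in the RefSeq promoter table (GRCm38), and this window of 250 bases ends at the base before the third of them. It covers chr6:115421816-115422065 on the plus strand and lies in an intron of the longer transcripts. Capitals mark the letters TTGCNNAA or TTNNGCAA, the letters of a C/EBP element in 2 spellings that are each other's reverse complement, so both strands are covered and no other motif was searched here.
Pparg upstream: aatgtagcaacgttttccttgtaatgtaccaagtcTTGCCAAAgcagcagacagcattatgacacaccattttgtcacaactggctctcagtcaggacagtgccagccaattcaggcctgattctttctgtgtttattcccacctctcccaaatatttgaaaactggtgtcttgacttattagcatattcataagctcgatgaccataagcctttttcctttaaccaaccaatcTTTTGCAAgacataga
The letters occur 2 times, starting 215 and 16 bases before the start site. The windows of the other 2 starts do not hold them. They occur in 9.56% of all 32851 windows and 7.10% of the 9336 windows of genes tested. Of the 130 windows of genes at least 2-fold higher in bCAPs (below), 17 (13.1%) hold them, and of the 68 of genes at least 2-fold lower 5 (7.35%). Counted per gene with a window, the shares were 8.62% of genes tested, 20.2% of the higher and 10.2% of the lower genes. Here a gene counts if any of its windows holds the letters. The 130 windows belong to 84 higher genes and the 9336 to 7253 genes tested, so the higher genes had more windows each. Genes without a window are left out, and the difference in shares was not tested. A match describes the sequence and does not show that a factor binds there.

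Single bCAPs differed widely in the markers. To set cells on the same footing, each was drawn down to 10000 UMIs, which no labelled cell missed. At that depth Pparg was found in 42.9% (37.2 to 48.8%) of bCAPs and 31.1% (28.9 to 33.3%) of the other cells. Without thinning the shares were 64.2% and 50.8%. By cluster at equal depth, Pparg was found in 45.6% (38.0 to 53.4%) of bAPC 3, 39.4% of bAPC 4 and 38.6% of bAPC 1. It was found in 28.7% of bAPC 2, 13.9% of bAPC 5 and 12.9% of bFAPLs, so bCAPs did not have the highest share. Unthinned, bAPC 4 (65.5%) and bAPC 3 (64.3%) also stood slightly above bCAPs. Fabp4 was found in 72.0% (66.5 to 77.0%) and 36.5% (34.2 to 38.8%) of cells at equal depth, and in 86.1% and 53.8% unthinned. Ebf2 was found in 87.5% (83.2 to 91.0%) of bCAPs and 56.6% (54.2 to 59.0%) of the rest (97.0% and 75.4% unthinned). In the 22 cells of the same library that the study labelled glial before it removed other cell types, with a median of 17174.5 UMIs, equal depth left Pparg in 4.55%, Fabp4 in 9.09% and Ebf2 in 0%, and a count of 0 in 22 cells allows a share of up to 15.4% by the exact binomial interval. For Fabp4 the share and the level part in this set, since 1 glial cell held 34 UMIs of Fabp4 at equal depth. The glial mean of Fabp4 was thereby 1.59 UMIs per cell, above the 0.989 of the other precursors and below the 2.86 of bCAPs. Mature adipocyte markers summed to 274 CPM in the glial cells and 9.51 in bCAPs. All 3 markers together were found in 81 of 296 bCAPs, or 27.4% (22.4 to 32.8%), against 9.86% (8.49 to 11.4%) of the others. None of the 3 was found in 9 bCAPs. By summed level the label therefore marks a population with more of each transcript, not cells that alone express them. Outside the label, 168 cells held all 3. By share of cells this did not hold for Pparg, since bAPC 3 stood higher and the intervals of bAPC 1, bAPC 3 and bAPC 4 overlapped that of bCAPs.

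**Figure D2:**
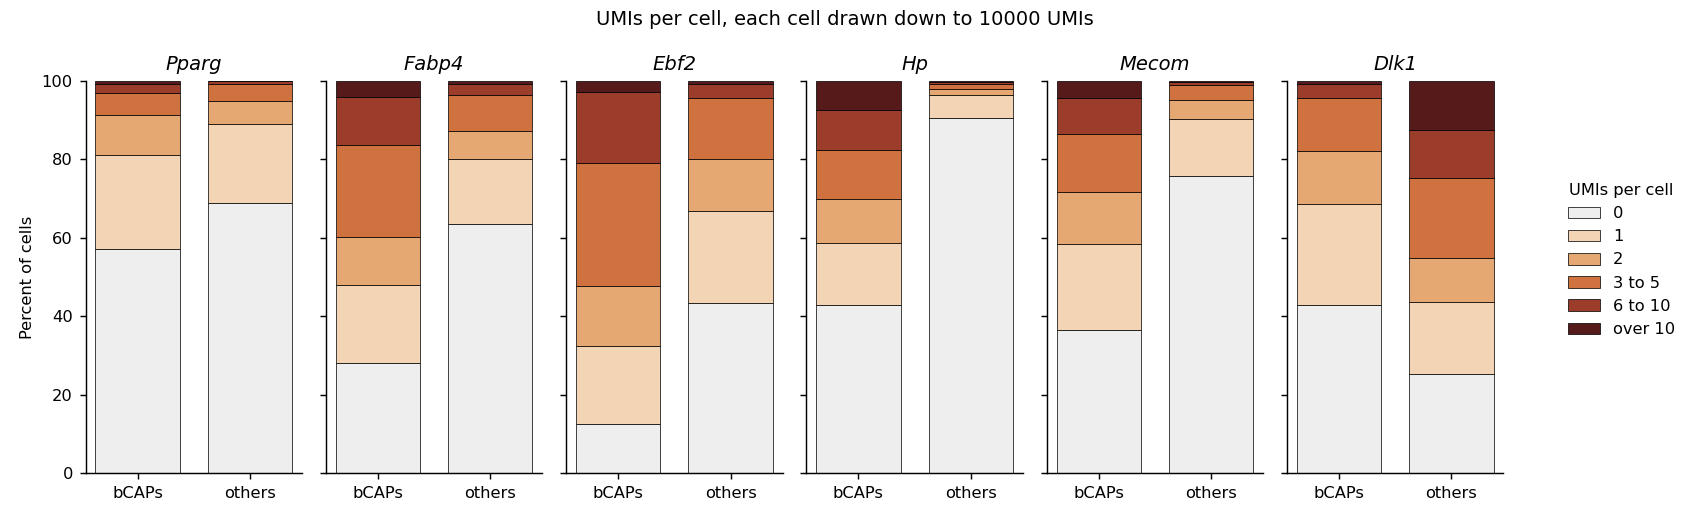
Stacked bars give the percent of cells with 0, 1, 2, 3 to 5, 6 to 10 or over 10 UMIs of each gene after every cell was drawn down to 10000 UMIs, for the 296 bCAPs and the 1703 other labelled brown cells. The share with no UMI of Hp falls from over 90% in the others to under 50% in bCAPs, and for Dlk1 the bCAPs have the larger share without a UMI.

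Across the transcriptome, 9071 genes reached 10 CPM in bCAPs or in the other labelled cells. Of these, 129 (1.42%) were at least 2-fold higher and 74 (0.816%) at least 2-fold lower in bCAPs, together 203 (2.24%), and the median log2 ratio was 0.05. The bCAPs ranked first of the 7 clusters for 116 of the 129 higher genes and last for 58 of the 74 lower genes. These genes were picked by their ratio over the same clusters, so such ranks are largely built in. Among the clusters other than bCAPs, bFAPLs were highest for 57 of the 129 higher genes, more often than any of the 5 bAPC clusters. The share over all genes tested is not given here, so this count is a description only.

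Haptoglobin, the secreted binder of free haemoglobin, led the genes at 50 CPM or more by a wide margin. Hp (ENSMUSG00000031722, chromosome 8, 109575128 to 109579172) reached 308 CPM (297 to 321) in bCAPs. It was 14.1 CPM in bAPC 1, 18.6 in bAPC 2, 15.7 in bAPC 3, 12.0 in bAPC 4, 2.79 in bAPC 5 and 54.7 in bFAPLs. The log2 ratio over all others was 3.91 (3.80 to 4.01), or 15.0-fold, and bFAPLs were the only other cluster above 20 CPM. Hp had the largest variance relative to the mean among the genes counted cell by cell. At equal depth 57.1% (51.2 to 62.8%) of bCAPs and 9.45% (8.11 to 10.9%) of the others held it, and 4.55% of glial cells (72.0%, 17.3% and 9.09% unthinned). In the glial set that was 1 cell with 16 UMIs, a mean of 0.727 against 0.221 in the other precursors. Single bCAPs had up to 71 UMIs, and the variance over bCAPs was 15.8 times the mean, against 2.63 for Ebf2. The 169 bCAPs with Hp and the 127 without it, at the same depth, held 765 (724 to 808) and 438 CPM (402 to 476) of Lpl, the lipoprotein lipase. Cebpa was at 81.1 and 42.5 CPM in those cells, while Mecom, at 231 and 234, and Ebf2, at 345 and 325, were close. This split was made on a measured value and is a description only.

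The next of the 15 leading genes are regulators and signals. Mecom (ENSMUSG00000027684, chromosome 3, 29951296 to 30548008), a zinc finger transcription factor of the Prdm family also known as Evi1, stood at 234 CPM (223 to 244) in bCAPs. It was 55.5 CPM in bAPC 1, 31.5 in bAPC 2, 86.3 in bAPC 3, 62.5 in bAPC 4, 38.1 in bAPC 5 and 29.2 in bFAPLs. Its log2 ratio was 2.29 (2.20 to 2.37), and it was found in 63.5% (57.7 to 69.0%) of bCAPs and 24.1% (22.1 to 26.2%) of the others at equal depth, beside 9.09% of glial cells (78.0%, 39.3% and 9.09% unthinned). Fst, the secreted inhibitor of activins, reached 313 CPM in bCAPs and 75.9 CPM in bAPC 1, 83.9 in bAPC 2, 68.9 in bAPC 3, 123 in bAPC 4, 176 in bAPC 5 and 149.9 in bFAPLs. Angpt1, the ligand of the Tie2 receptor of blood vessels, was at 59.0 against 11.7 CPM (log2 ratio 2.33), and none of the 6 other clusters exceeded 15.7 CPM. The chemokine Ccl9 was at 52.9 against 8.51 CPM (2.64). Among receptors and adhesion molecules, the ephrin receptor Epha7 was at 78.0 against 24.1 CPM (1.69) and Kirrel3 at 61.0 against 17.5 CPM (1.80). In all 6 of these genes the bCAPs ranked first of the 7 clusters.

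The other 8 leading genes have varied roles. Abi3bp, a matrix protein, was at 245 CPM in bCAPs against 119 in bAPC 5, the next cluster (log2 ratio over all others 2.29). Cp, the copper-carrying ferroxidase ceruloplasmin, was at 132 against 35.7 CPM (1.89). The phosphodiesterase Pde1a was at 132 against 30.6 CPM (2.11), and bFAPLs, at 78.4, held more of it than any bAPC cluster. Sorbs2, an adaptor of the actin cytoskeleton, was at 122 against 37.4 CPM (3.26-fold), and Mtss1, which binds actin and membranes, at 58.5 against 13.6 CPM (2.11). Sncaip, the binding partner of synuclein, was at 125 against 36.7 CPM (1.77), and 1500009L16Rik, with no assigned function here, at 66.7 against 15.5 CPM (2.10). Fgf14, which binds sodium channels inside the cell and is not secreted, was at 60.1 against 10.2 CPM (2.56) with unlike ratios in male and female cells, as given below.

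**Figure D3:**
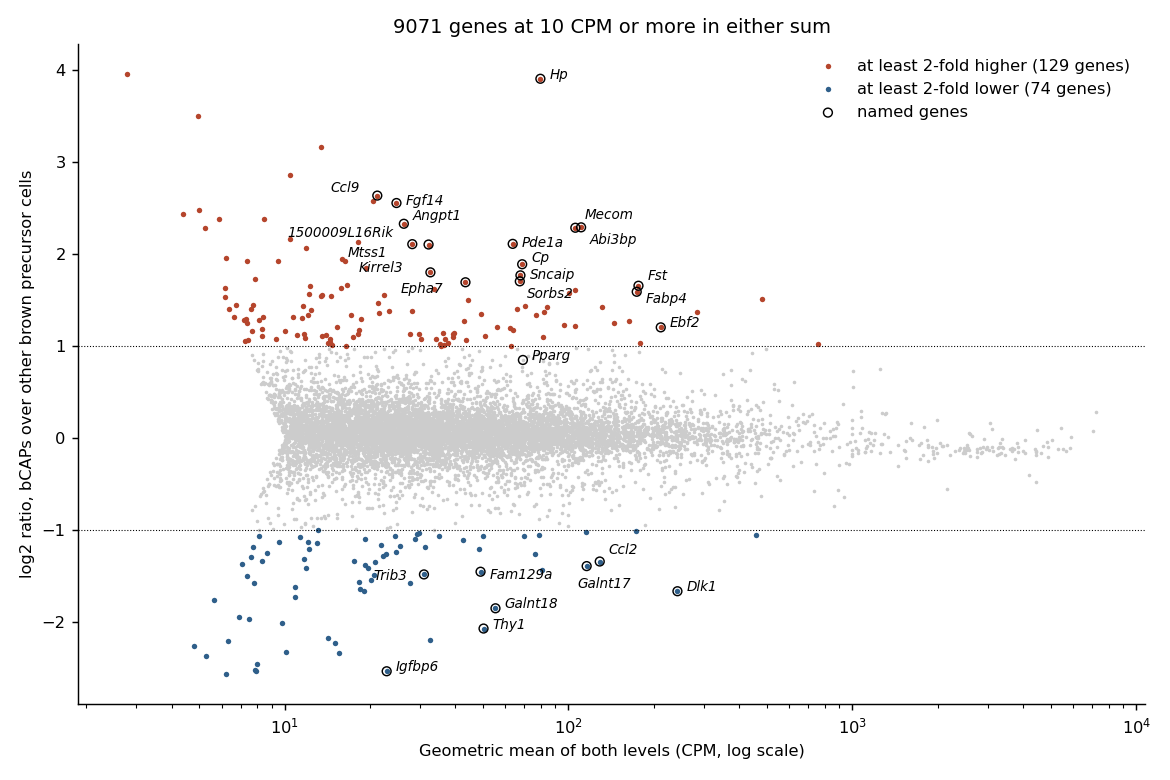
Each dot is a gene, placed by the geometric mean of its 2 levels (CPM, log scale) and by the log2 ratio of bCAPs over the other labelled brown cells, with genes at least 2-fold higher in red and lower in blue and the named genes circled. Hp stands alone near a log2 ratio of 3.91 among genes of its level, and Pparg, at 0.85, lies just under the 2-fold line.

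Among the genes with the lowest ratios at 50 CPM or more in the others, 8 are given here. Igfbp6, which binds IGF2, was at 9.51 CPM in bCAPs. In the other clusters it was 46.3 CPM in bAPC 1, 53.8 in bAPC 2, 34.9 in bAPC 3, 29.0 in bAPC 4, 55.4 in bAPC 5 and 106 in bFAPLs. The log2 ratio was -2.54 (-2.88 to -2.21), a 5.80-fold lower level, and every other cluster stood above the interval of bCAPs (7.52 to 11.9). Thy1, a surface glycoprotein of mesenchymal cells, was at 24.5 CPM in bCAPs and between 94.0 and 122 CPM in the other 6 clusters. Dlk1 (ENSMUSG00000040856, chromosome 12, 109452823 to 109463336) ranged over the other clusters from 144 CPM in bFAPLs to 1021 in bAPC 5, with a log2 ratio of -1.67 (-1.75 to -1.58). The level in bFAPLs (136 to 153) overlapped that in bCAPs (128 to 144), so a low Dlk1 was shared with that cluster. Galnt18 (-1.85) and Galnt17 (-1.39), enzymes that start O-glycans, were both lower, as were the stress genes Trib3 (-1.48) and Fam129a (-1.45) and the monocyte chemokine Ccl2 (-1.34).

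The list of adipogenic transcription factors had 1 gene past 2-fold. Of its 30 members 26 reached 10 CPM, of which 1 was at least 2-fold higher, 0 lower and 22 above 0, with a median log2 ratio of 0.28. Over all genes tested 60.4% lay above 0, the median was 0.05 and 2.24% were past 2-fold either way, and the counts of each list below are to be read beside these shares. The gene past 2-fold was Mecom. The study names Mecom and other members of the list from regulon scores of these same cells, so the list is not independent evidence of its direction. Cebpa, the partner of Pparg, was at 61.2 against 34.0 CPM (0.85), and Zfp423, a commitment factor upstream of Pparg, at 62.7 against 40.5 CPM (0.63). At equal depth Cebpa was found in 41.9% (36.2 to 47.7%) of bCAPs and 33.7% (28.2 to 39.6%) of bFAPLs. These intervals overlap, so Cebpa was not particular to bCAPs by share of cells. The early C/EBP factors parted, Cebpd at 177 against 132 CPM (0.42) and Cebpb at 107 against 169.7 CPM (-0.67). Klf4, an early regulator of Cebpb, was at 42.5 against 71.9 CPM (-0.76). Further factors were taken from the study's account of regulon activity, which is scored from target genes and not transcript level, in bAPC 1 and bCAPs together. Of these, Nfia (0.28), Tcf7l1 (0.31), Creb3l2 (0.33), Patz1 (0.29), Foxo3 (0.24), Klf6 (0.18) and Sox4 (0.18) had positive log2 ratios under 0.4, Creb1 (0.01) and Atf2 (0.06) lay near 0, and Tbx15 was at 101 against 130.2 CPM (-0.37).

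Of the brown commitment factors, 13 of 20 reached 10 CPM, 1 was at least 2-fold higher and 0 lower, with a median of 0.17. All 3 expressed members of the Ebf family were higher, Ebf1 at 1218 against 829.7 CPM (0.55), Ebf3 at 121 against 68.4 CPM (0.82) and Ebf2 past 2-fold. Prdm16, the coregulator that sets brown identity, was at 14.4 CPM (11.9 to 17.2) in bCAPs and between 5.93 and 8.49 CPM in the other clusters, a log2 ratio of 0.98 (0.67 to 1.29). It was found in 12.8% (9.25 to 17.2%) of bCAPs and 5.99% (4.91 to 7.22%) of the others at equal depth (27.4% and 16.3% unthinned). Glial cells express Prdm16 (86.4% unthinned) and give no background for it. Zic1, a regional gene of brown precursors, was at 33.6 against 25.8 CPM (0.38), and Lhx8, another, at 20.7 against 27.5 CPM (-0.41). Esrrg, a nuclear receptor of oxidative tissues, was at 36.5 against 22.5 CPM (0.70). Ppargc1a, the coactivator of thermogenic genes, stayed under 10 CPM in every cluster, and Irf4 had no UMI in any labelled brown cell.

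Genes of the mature fat cell were hardly present. Of 10 mature adipocyte markers none reached 10 CPM in either sum, and Cidec, Lep, Pck1 and Ucp1 had 0 UMIs in bCAPs, which allows up to 0.366 CPM each (3 UMIs of the total). The 10 markers summed to 9.51 CPM in bCAPs and between 1.33 and 4.13 CPM in the other clusters. Car3 made up most of it, at 6.10 CPM (4.52 to 8.04) against 1.35, and Adipoq, the gene of adiponectin, was at 1.10 CPM (0.502 to 2.08) against 0.303. Of the thermogenic effectors 4 of 20 reached 10 CPM, none differed 2-fold, and the lowest was the thioesterase Acot2 at 16.3 against 32.2 CPM (-0.98).

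In the lipid handling list 19 of 30 members were tested, of which 1 was at least 2-fold higher (Fabp4) and 0 lower, 15 lay above 0 and the median was 0.19. Lpl, which frees fatty acids from lipoproteins, was at 611 CPM in bCAPs and 366 CPM in bAPC 1, 354 in bAPC 2, 294 in bAPC 3, 290.4 in bAPC 4, 108 in bAPC 5 and 286 in bFAPLs. Its log2 ratio was 0.93 (0.88 to 0.97). Elovl6 and Scd1, which elongate and desaturate fatty acids, were at 57.9 against 43.3 CPM (0.42) and 82.2 against 64.4 CPM (0.35). Plin2, which coats small lipid droplets, was at 86.9 against 90.6 CPM (-0.06), and Fabp5, the relative of Fabp4, at 419 against 528 CPM (-0.33). Of the adipocyte hormones and receptors 8 of 18 were tested, with 1 at least 2-fold higher, 0 lower and a median of 0.53. Rbp4, the retinol carrier, was the one past 2-fold, at 10.4 against 3.93 CPM, and the insulin receptor substrates Irs1 (98.4 against 52.8 CPM, 0.90) and Irs2 (0.65) followed. In cholesterol synthesis the ratios were small, with 22 of 23 tested enzymes and regulators above 0 (beside 60.4% of all genes), none past 2-fold and a median of 0.31. The widest of these at 20 CPM or more were Nsdhl (0.52), Pmvk (0.47) and Sqle (0.46).

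In the list of adipogenesis inhibitors 17 of 22 were tested, of which 1 was at least 2-fold lower (Dlk1), 0 higher, and the median was 0.06. Ddit3, a C/EBP partner that blocks binding, was at 71.6 against 138 CPM (-0.95) and the homeobox factor Meox2 at 16.9 against 29.8 CPM (-0.82), while Foxo1 (21.2 against 11.6 CPM, 0.88) and Klf2 (159 against 104 CPM, 0.61) were higher. Among genes that the study names for FAPLs, 11 of 14 were tested, 1 was at least 2-fold lower (Shox2), 0 higher, and the median was -0.34. That list was chosen by the study on these cells and is no independent evidence of its direction. Without bFAPLs among the comparison cells its median was 0.011. Of the markers of adult adipose progenitor subtypes 9 of 21 were tested, 3 were at least 2-fold lower and 0 higher. The 3 were Ly6a, the gene of Sca1 (16.1 against 38.1 CPM, -1.24), Sema3c (8.17 against 17.9 CPM, -1.13) and Col5a3 (24.3 against 50.6 CPM, -1.06). Ly6a belongs to a family of similar genes whose reads may be shared, and its value is less certain. Cd34 (0.731 against 3.67 CPM) and Dpp4, with 0 UMIs in bCAPs, were under 10 CPM.

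Growth factor signalling genes differed in both directions. In the BMP and TGF-beta list 30 of 40 members were tested, 4 were at least 2-fold higher and 2 lower, with a median of 0.08. Higher were the ligands Bmp5 (21.1 against 7.10 CPM, 1.57) and Bmp4 (21.0 against 9.92 CPM, 1.08) and the antagonists Fst and Chrdl1 (20.1 against 7.64 CPM, 1.40). Bmp5 was however found at equal depth in 15.2% of bCAPs, 15.7% of bAPC 5 and 14.3% of bFAPLs (27.0%, 27.0% and 31.2% unthinned). For Bmp4 another cluster stood above bCAPs. The receptor Bmpr1b was lower (34.5 against 72.0 CPM, -1.06), while Bmpr1a (0.07) and Bmpr2 (0.11) were near 0. The BMP target genes Id1 (-0.19), Id2 (0.13) and Id3 (0.23) stayed within 0.25 of 0.

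Of the Wnt list 21 of 43 were tested, 4 were at least 2-fold higher and 1 lower, and the median of 0.43 was among the highest of the lists. Rspo2, a secreted enhancer of Wnt signals, was at 107 CPM in bCAPs and 40.7 CPM in bAPC 1, 17.7 in bAPC 2, 62.5 in bAPC 3, 29.6 in bAPC 4, 31.0 in bAPC 5 and 74.0 in bFAPLs. Its receptors went opposite ways, Lgr5 at 23.0 against 7.89 CPM (1.55) and Lgr4 at 20.7 against 42.5 CPM (-1.04). Lgr5 was however highest in bAPC 5, at 32.5 CPM, and only 25 of 296 bCAPs held it at equal depth (35 unthinned), the highest with 31 UMIs. No glial cell held it. The secreted Wnt antagonist Sfrp1 was at 1079 against 529 CPM (1.03), Daam2, an adaptor of the pathway, at 29.1 against 11.9 CPM (1.30), and the receptor Fzd4 at 56.3 against 33.5 CPM (0.75). Axin2, the common target gene of the pathway, was at 1.71 against 0.504 CPM, under 10 CPM in both.

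Among PDGF and FGF genes 11 of 19 were tested and 2 were at least 2-fold higher, the ligands Fgf2 (23.3 against 10.1 CPM, 1.20) and Pdgfd (59.0 against 26.7 CPM, 1.15). The receptor Pdgfra, the general marker of these precursors, was at 112 against 78.0 CPM (0.52). It was found in 61.1% (55.3 to 66.7%) of bCAPs, 50.0% of the others and 0% of glial cells at equal depth (86.8%, 78.3% and 0% unthinned). In the IGF and insulin list 21 of 23 were tested, 1 was at least 2-fold lower (Igfbp6), 0 higher, and Pik3r1, the regulatory subunit of PI3 kinase, was at 154 against 92.4 CPM (0.73).

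All 32 fibrillar matrix genes were tested, 2 were at least 2-fold higher, 0 lower, and the median was -0.18. The 2 were the small matrix proteins Mgp, an inhibitor of calcification (457 against 177 CPM, 1.37), and Ogn (224 against 94.0 CPM, 1.25). Mgp was found at equal depth in 77.7% (72.5 to 82.3%) of bCAPs and 71.3% (65.6 to 76.6%) of bFAPLs, intervals that overlap. Fbn2, a fibrillin of developing tissue, stood at 694 CPM in bCAPs and 413 CPM in bAPC 1, 283 in bAPC 2, 334 in bAPC 3, 433 in bAPC 4, 415 in bAPC 5 and 268 in bFAPLs (0.97), whereas Fbn1 was at 674 against 819 CPM (-0.28). The crosslinking enzyme Lox was higher (1292 against 779 CPM, 0.73), and the collagen genes Col1a1 (-0.41), Col1a2 (-0.48), Col6a3 (-0.60) and the matrix proteins Tnc (-0.75), Postn (-0.57) and Fbln2 (-0.64) had log2 ratios below 0. Of the basement membrane list 14 of 22 genes were tested and none differed 2-fold (median -0.08), with Col18a1 lowest at 16.8 against 33.0 CPM (-0.97).

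**Figure D4:**
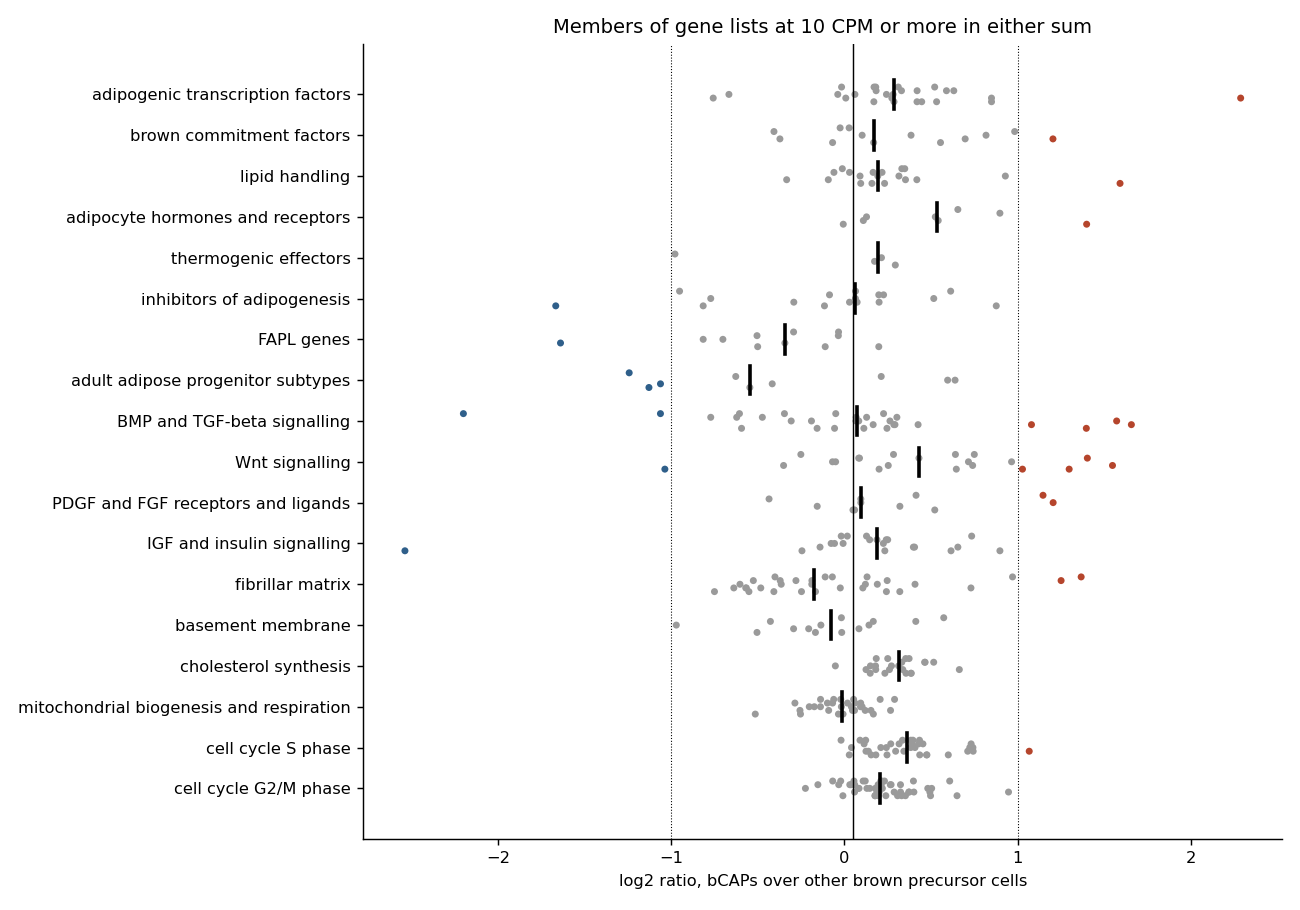
Dots are the genes of each list that reached 10 CPM, placed by the log2 ratio of bCAPs over the other labelled brown cells, red at 2-fold higher and blue at 2-fold lower, with each list's median as a thick bar and the median of all 9071 genes as the solid line. Most lists scatter on both sides of the line, while cholesterol synthesis and S phase lie mostly to its right and FAPL genes mostly to its left.

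By scores of S and G2/M genes, 62.2% (56.4 to 67.7%) of bCAPs were called G1, 20.6% (16.1 to 25.7%) S and 17.2% (13.1 to 22.0%) G2/M, against 66.2% (63.9 to 68.4%), 16.2% (14.5 to 18.0%) and 17.6% (15.8 to 19.5%) of the other cells. The intervals overlap for each phase. G2/M reached 44.4% in bAPC 3. At 10000 UMIs per cell the bCAPs were 61.8% G1, 19.6% S and 18.6% G2/M, and the share in S ran over the other clusters from 12.0% in bAPC 4 to 21.2% in bAPC 2. In the S phase list 36 of 42 genes were tested, of which 35 had ratios above 0 (beside 60.4% of all genes), 1 was at least 2-fold higher (Cdc6, 10.7 against 5.12 CPM) and the median was 0.36, while the 50 G2/M genes tested had a median of 0.21 and none past 2-fold. With G1 cells only on both sides, the medians were -0.14 for S phase and 0.023 for G2/M genes, and in male cells that of G2/M genes was -0.14. Cells are called G1 by low scores of these same lists, so the G1 medians are no independent result. In G1 cells the log2 ratios were 3.87 for Hp, 2.32 for Mecom and -1.61 for Dlk1. The 33 mitochondrial genes tested (-0.02), the 15 p53 targets (0.29) and the 17 immediate early genes (0.18) had medians within 0.3 of 0 and no member past 2-fold, the latter 2 lists being ones that rise in damaged or freshly dissociated cells.

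Markers of other cell types were low in bCAPs or close to their level in the other precursors. The 12 myeloid markers summed to 12.8 CPM in bCAPs and 14.2 in the others, against 14965 CPM in the 27 cells labelled myeloid before exclusion, with Lyz2 the most abundant at 5.00 and Itgam and Cd52 at 0. The 12 myogenic markers summed to 9.51 and 9.30 CPM, against 14889 in the 8 cells labelled myoblasts, with Actc1 the most abundant at 4.39 and Myod1, Pax7, Cdh15 and Ckm at 0. Glial markers summed to 127 and 108 CPM, of which Pmp22, also a fibroblast gene, gave 103 in bCAPs, while Sox10, Erbb3 and Gfra3 were at 0. Endothelial markers summed to 68.4 and 89.8 CPM, with Eng the most abundant at 36.6, Flt1 lower in bCAPs (6.95 against 32.5 CPM) and Pecam1, Cdh5, Cldn5 and Tie1 at 0. Pericyte markers summed to 73.8 CPM in bCAPs and 94.0 in the others, with Notch3 the most abundant at 31.6 and Higd1b and Vtn at 0. Among the precursor clusters their sum was highest in bFAPLs at 245 CPM, while the labelled glial cells held 296 CPM. The 12 smooth muscle genes, all found, summed to 7516 and 8273 CPM, led by Acta2 at 4198 against 4657.

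The pool held male and female pups, and cells could be told apart by Xist and 4 Y-linked genes. Of the 272 labelled cells called male 50 were bCAPs, or 18.4% (14.0 to 23.5%), and of the 1655 called female 229, or 13.8% (12.2 to 15.6%). Both sexes thus contributed, and these intervals overlap. With labels carried over to cells outside the part of the label table used, the shares were 16.8% (14.2 to 19.5%) and 12.8% (11.9 to 13.8%). These intervals do not overlap. Male and female cells come from different pups, so each gives a separate ratio of bCAPs over others. Hp had log2 ratios of 3.57 in male and 3.92 in female cells, Mecom 2.07 and 2.37, Ebf2 1.03 and 1.24, Fst 1.76 and 1.65, Dlk1 -1.43 and -1.75, and Igfbp6 -2.71 and -2.43. Pparg did not separate in male cells, at 79.3 against 69.4 CPM (0.19, -0.13 to 0.50), and did in female cells, at 95.7 against 48.2 (0.99). Cebpa was at 0.28 (-0.16 to 0.70) in male and 0.94 in female cells, and Prdm16 at 0.80 (-0.09 to 1.63) and 1.09. Fabp4 was at 0.65 (0.45 to 0.84) and 1.76. Of the 15 leading genes Fgf14 had the widest gap, 0.54 (-0.04 to 1.09) and 2.93. Of the 129 higher genes 78, and of the 74 lower genes 47, were at least 2-fold apart in the same direction in both sexes. The genes were picked on all cells, and 229 of the bCAPs were called female, so agreement is partly built in. The share over all genes tested is not given here, and the counts are a description only. With 50 male bCAPs and no label that ties a cell to a pup, sex and single animals cannot be told apart.

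**Figure D5:**
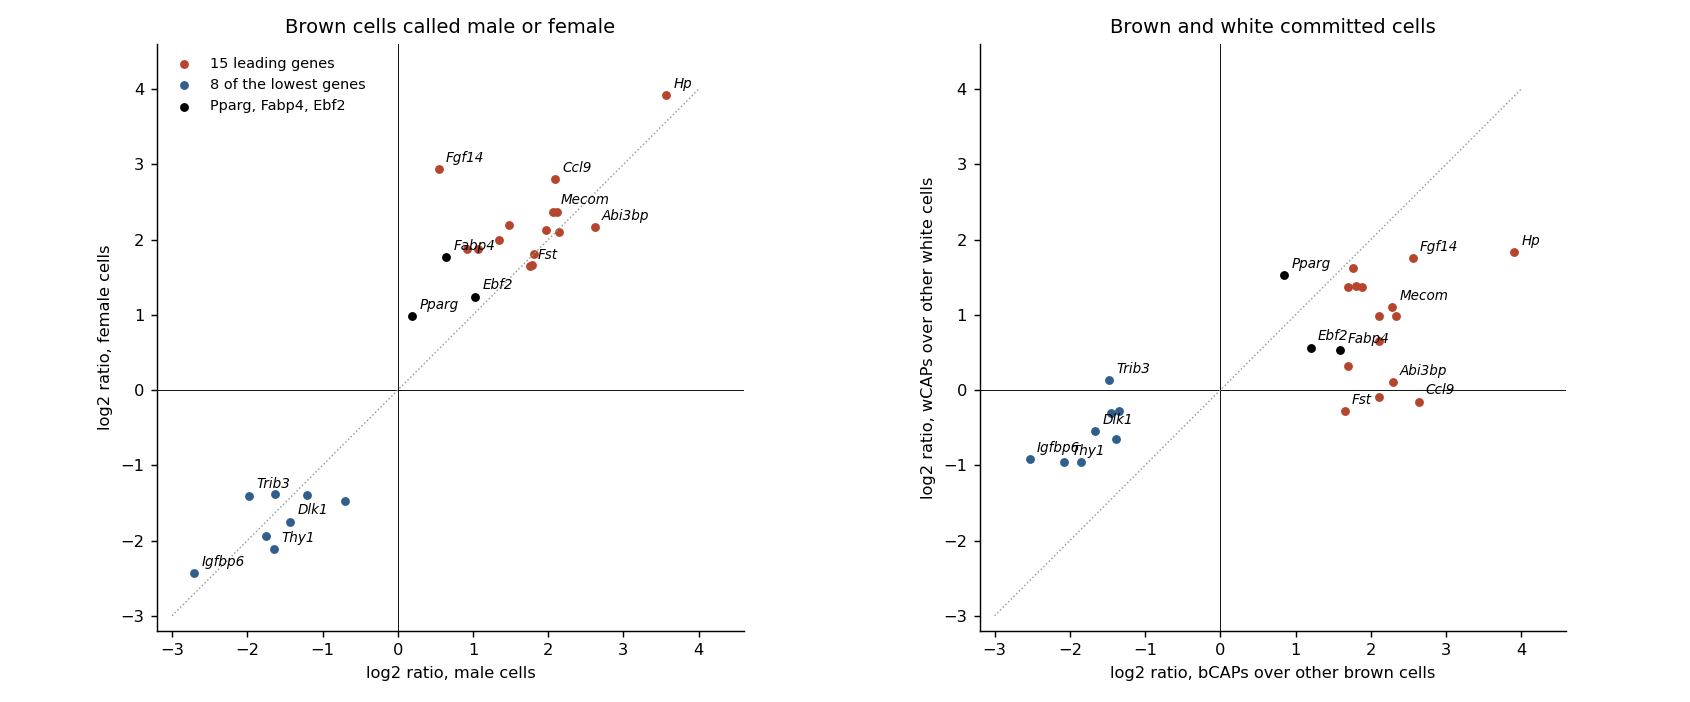
The left panel sets the log2 ratio of bCAPs over other brown cells in female cells (y) against that in male cells (x), and the right panel sets the ratio of white CAPs over other white cells (y) against that of bCAPs (x), for the 15 leading genes (red), 8 of the lowest (blue) and the 3 markers (black). Dotted lines mark equal values, and every plotted gene keeps its side of 0 between the sexes while several leading genes, Fst, Ccl9 and Abi3bp among them, lie near 0 in the white cells.

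Compared cluster by cluster, bAPC 1 and bFAPLs were the nearest to bCAPs. Across genes at 10 CPM or more, the rank correlation of levels with bCAPs was 0.964 for bAPC 1 over 9141 genes and 0.959 for bFAPLs. Among the brown clusters it was lowest for bAPC 2 at 0.944. The median absolute log2 difference was 0.163 from bAPC 1 and 0.163 from bFAPLs, so the order of these 2 depends on the measure, and bAPC 1 has the most UMIs. The correlations are across genes of 1 library, which are not independent. Against bAPC 1, 148 genes (1.62%) were at least 2-fold higher and 115 (1.26%) lower, and against bFAPLs 184 (2.01%) and 170 (1.86%). The white counterpart, the 674 labelled wCAPs, was compared with the 1325 other labelled white cells of its own library. There 56 genes (0.617%) were at least 2-fold higher and 62 (0.683%) lower. Of the higher ones 20 were among the 129 of bCAPs, 15.5% of the brown and 35.7% of the white list. Pparg had the larger ratio in white cells (1.52), and Lpl about the same (0.96). Hp (1.84) and Mecom (1.10) were past 2-fold there as well, whereas Fst (-0.28), Mgp (-0.42), Ccl9 (-0.15) and Abi3bp (0.10) were not. With 1 library per depot, depot and library cannot be told apart, and whether the ratios differ between depots was not tested.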

How the data were processed

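Counts of UMIs per gene and cell, deposited by the authors for 1 brown and 1 white library, were used as raw counts without normalization. They were made with Cell Ranger 7.0.1 and its cell calls, with mm10 (GRCm38) as the build in the submitters' processing notes. Pups were P0 per the labels and P1 per the paper's methods. The brown matrix holds 7009 barcodes, 32285 genes and 205551320 UMIs, with 504 to 120708 UMIs per barcode. The study's limits (over 3900 and under 7700 genes, 1.7 to 5% mitochondrial UMIs, 6000 to 60000 UMIs) kept 6137 of them when genes found in at least 3 cells were counted, slightly fewer than the study states. Cluster labels came from the study's source data, of which the first 1999 of 5958 brown rows, in barcode order, were used, and all 1999 pass the limits. Glial, myeloid and myoblast cells come from a like table made before exclusion, also used in part. No step that removes doublets is given in the sources used here beyond the upper limits, and none was added. The 2 libraries share 9 barcodes, of which 1 belongs to a bCAP.

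UMIs were summed per cluster. Genes with at least 10 CPM in either sum were compared by log2 ratio with no pseudocount. Intervals are exact Poisson, conditional binomial or Clopper-Pearson at 95%. Thinning drew each cell to 10000 UMIs without replacement with a fixed seed. Phases were scored with scanpy 1.11.5 on log-normalized counts. Cells with at least 1 UMI of Xist and none of 4 Y-linked genes, or the reverse, were called female or male. Alternatives were thinned cells, G1, male or female cells only, other clusters weighted equally or left out, centring, labels carried over by 15 neighbours, 50 CPM or no minimum, and 1.5-fold. Python 3.11.15, scikit-learn 1.9.0, pandas 2.3.3, scipy 1.17.1 and numpy 2.4.6 were used. On simulated sums for bCAPs over the other labelled cells (8886 genes in the step), all 200 genes raised or lowered by 3-fold or 4-fold were called at 2-fold and none of 8686 unchanged genes was. The sums were drawn with Poisson error only, and the changed genes had at least 20 CPM. This checks the computation and gives no error rate for the real genes, whose counts vary more between cells and may lie near 2-fold. Gene positions are from GENCODE on GRCm38 and the upstream sequence from RefSeq.

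The cells, markers and gene lists were chosen with earlier results of these data known, and 4 lists in the closing section after values were seen. Genes named are the 3 markers, factors whose regulons the study names for bAPC 1 and bCAPs, the 15 highest and 10 lowest log2 ratios at 50 CPM or more in the higher sum (without Xist, Y-linked and mitochondrial genes), up to 4 members per list with the largest ratios at 20 CPM or more, and all cell type markers. Further list members are named where their role is described, and were picked with values in view. Some genes that the rule names are not reported here.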

Additional observations from a re-analysis of the deposited data

Results flagged for a closer look

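Pdlim1, an adaptor of the actin cytoskeleton, had ratios of opposite sign in the committed cells of the 2 depots. In brown cells it was at 89.1 CPM in bCAPs against 44.5 in the other labelled cells, a log2 ratio of 1.00 (0.88 to 1.12). Another brown cluster stood above bCAPs for this gene, and its log2 ratio was 0.55 in male and 1.08 in female cells. In white cells it was at 25.2 CPM in wCAPs against 54.5, a log2 ratio of -1.12 (-1.26 to -0.97). Among genes with at least 50 CPM in the higher sum of each depot, it was the only one at least 2-fold apart in opposite directions, and the difference between depots was not tested.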

How the results depend on the processing

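The ratios of Fabp4 and Ebf2 stayed above 0 under the alternatives run. That of Pparg did too, except that its interval in male cells included 0. Some list medians changed sign. Without bFAPLs in the comparison the median log2 ratio was 0.011 for FAPL genes, 0.056 for basement membrane, 0.088 for smooth muscle and 0.54 for pericyte markers, all below 0 in the main comparison. The pericyte median was 0.055 with labels carried over. S phase genes had -0.14 in G1 cells, thermogenic effectors -0.031 in thinned cells, and in male cells G2/M genes had -0.14 and endothelial markers -0.080, all above 0 in the main comparison. The G1 cells are those with low scores of the S phase and G2/M lists themselves. The mitochondrial and basement membrane medians, within 0.1 of 0, also crossed 0 by smaller steps. The cause was not tested. For the main comparison, 42 alternative values of the gene counts, the 3 marker ratios, and the phase and sex shares stayed within the counting interval of the reported value, or within 1.5 times a count. The log2 ratio of Pparg was 1.02 in G1 cells, 0.97 with the 6 other clusters weighted equally, 0.68 without bFAPLs, 0.19 (-0.13 to 0.50) in male cells and 0.99 in female cells. That of Fabp4 was 1.47 in G1, 0.65 in male and 1.76 in female cells. That of Ebf2 was 1.13 in G1 cells, 1.12 with equal weights, 1.28 with labels carried over and 1.03 in male cells. The 129 higher and 74 lower genes became 407 and 227 at 1.5-fold, 53 and 20 at a minimum of 50 CPM, and 1913 and 702 with no minimum, where sums of a few UMIs enter. Male cells alone gave 136 lower genes, of which 48 were among the 74, and 169 higher ones, of which 77 were among the 129, with the minimum of 10 CPM set in male cells. The count for both sexes in the sex comparison kept the minimum set in all cells. Labels carried to cells outside the part of the label table used gave 805 bCAPs and 138 higher and 75 lower genes. When held out, 83.1% of labelled bCAPs got their own label back. Male bCAPs, at 50 cells, limit every comparison within that sex. No paired analysis was possible because each depot has 1 library and no fit across samples was made.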

Other observations

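Lists put together after the ratios had been seen give further description of bCAPs and no support for it. Of 20 acute-phase and complement genes 4 reached 10 CPM, 3 of them at least 2-fold higher in bCAPs (Hp, Cp and Apoe) and 0 lower. Apoe, the lipoprotein component also made by macrophages and adipocytes, was at 255 CPM in bCAPs and 118 CPM in bAPC 1, 107 in bAPC 2, 68.5 in bAPC 3, 71.9 in bAPC 4, 25.4 in bAPC 5 and 149.8 in bFAPLs. The complement inhibitor Serping1 was at 54.5 against 35.6 CPM (0.61), below its level of 91.1 CPM in bFAPLs. Among 11 chemokine and cytokine genes tested, 1 was at least 2-fold higher (Ccl9) and 3 lower, Ccl2, Ccl7 (80.7 against 164 CPM, -1.02) and Cxcl14 (4.39 against 12.4 CPM, -1.50).

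Target genes of the integrated stress response, in which the factor Atf4 raises amino acid supply, were mostly lower in bCAPs. Of 26 tested, 3 had a log2 ratio above 0, 3 were at least 2-fold lower and the median was -0.59, beside 0.05 over all genes. Trib3 was at 18.5 against 51.8 CPM (-1.48), and in the 6 other clusters it lay between 42.2 and 59.8 CPM. Ero1l (31.9 against 73.9 CPM, -1.21), the cystine transporter Slc7a11 (6.46 against 14.1 CPM, -1.13) and the serine synthesis enzymes Phgdh (-0.61) and Psat1 (-0.62) followed. The folding chaperones Hspa5 (0.05) and Dnajb9 (0.13) were near 0. Trib3 had ratios of -1.98 in male and -1.40 in female cells, and of 0.13 in wCAPs over other white cells. Hypoxia and glycolysis genes had a median of -0.23 over 20 tested, with 2 above 0 and 1 at least 2-fold lower (Ero1l).

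Some genes of regional identity, named here after their values were seen, also stood apart. Hoxa5 was at 59.2 CPM (54.1 to 64.8) in bCAPs and 16.7 CPM in bAPC 1, 18.3 in bAPC 2, 19.2 in bAPC 3, 14.6 in bAPC 4, 14.6 in bAPC 5 and 31.4 in bFAPLs, and Hoxa3 at 40.7 against 18.7 CPM (1.13). Irx1 was at 2.56 against 15.2 CPM (-2.57), the lowest ratio of all 9071 genes. Hoxa5 had log2 ratios of 1.99 in male and 1.54 in female cells. Lama3, a laminin chain, had the highest ratio of all (3.96) at a level of 11.0 CPM (8.82 to 13.5), and Il1rn, the antagonist of the interleukin 1 receptor, was at 40.4 against 4.50 CPM (3.17). Plxdc2, a membrane protein, was at 808 against 284 CPM (1.51).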
